A study of Mus musculus with 10 samples.

Results

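The 34 genes described here drive DNA replication and mitosis, from the loading of the replicative helicase to the final cut between daughter cells. They were chosen by name, and each was represented by its annotated transcript with the highest mean level in a deposited comparison that covers 27876 genes. All 34 were found. RNA was sequenced from whole kidneys of wild-type mice, with 5 animals on vehicle and 5 whose drinking water held quinolinic acid at 0.5 g/L, and the kidneys were taken on day 14. Quinolinic acid is a breakdown product of tryptophan made in the kynurenine pathway, and the study asked about its effect on the kidney and on the passage from acute kidney injury to chronic kidney disease. The labels used here give no age or sex, and they do not say whether these animals received a kidney injury. The design text calls the sequenced mice representative of their groups, without saying how they were picked. Sample numbers 1 to 5 recur in both groups, and nothing says that they pair animals.

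Most epithelial cells of an adult kidney are out of the cell cycle, and tubular cells re-enter it after injury to replace lost neighbours. Before S phase, CDC6 helps to load the MCM helicase, a ring of MCM2 to MCM7, onto replication origins. Cyclin E then promotes entry into S phase, and CDK1 with cyclins A and B drives mitosis. Much of this programme is under transcriptional control: E2F factors act on many genes of replication, and the DREAM complex and its activating counterparts act on many genes of mitosis, often through a promoter element called the CHR together with CCAAT boxes bound by NF-Y.

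The choice of members by name did not use promoter sequence, and promoter windows are shown first. Since these elements are known from genes of replication and mitosis, their frequency among the members is a description and not an independent result. RefSeq (GRCm38.p6, the assembly of mm10) gave a window of 300 bases, from 250 before to 50 after the start, for 27 members. Windows of Mcm4, Ccne2, Ccna2, Aurkb, Pbk, Tpx2 and Kif20a are not shown. The 120 bases just before the start are printed below, 5′ to 3′ on the strand of the gene, for 1 helicase gene with E2F words and 4 mitotic genes with a CHR core or CCAAT boxes. Capitals mark the searched words on either strand: TTTGAA (the CHR core), CCAAT, and the E2F words TTTCCCGC, TTTGGCGC, TTTCGCGC and TTTGCCGC.
Mcm6, chr1:128359706-128359825, minus strand: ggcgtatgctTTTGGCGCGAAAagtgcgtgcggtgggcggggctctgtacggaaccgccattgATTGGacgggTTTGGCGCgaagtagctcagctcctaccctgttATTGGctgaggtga
Ccnb2, chr9:70421555-70421674, minus strand: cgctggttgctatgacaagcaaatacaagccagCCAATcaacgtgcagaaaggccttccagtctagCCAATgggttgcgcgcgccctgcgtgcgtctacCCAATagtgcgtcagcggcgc
Kif11, chr19:37376262-37376381, plus strand: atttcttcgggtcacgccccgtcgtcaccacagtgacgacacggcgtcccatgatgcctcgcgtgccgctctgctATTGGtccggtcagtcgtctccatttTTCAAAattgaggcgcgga
Top2a, chr11:99024190-99024309, minus strand: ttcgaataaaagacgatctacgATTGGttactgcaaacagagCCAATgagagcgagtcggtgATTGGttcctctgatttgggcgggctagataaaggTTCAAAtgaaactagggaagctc
Mki67, chr7:135716380-135716499, minus strand: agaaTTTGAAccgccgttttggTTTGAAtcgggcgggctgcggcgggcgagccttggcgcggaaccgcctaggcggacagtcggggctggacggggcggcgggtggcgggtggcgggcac
In the Ccnb2 window 3 CCAAT boxes follow each other at steps of 33 bases, and in the Top2a window 3 follow at steps of 20 bases. The Kif11 window holds a CHR core 19 bases before the start and the Top2a window holds one 23 bases before it. The Mki67 window holds 2 CHR cores, 116 and 98 bases before the start. The Mcm6 window holds 3 E2F words, the first 2 of which overlap, and 2 CCAAT boxes.

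Over the whole window of 300 bases, the CHR core was present in 14 of 27 members (51.9%), against 17.9% of all 32851 promoters of this length. Of these 14, only Mcm2, Cdk1, Cdc20, Kif11, Prc1, Mki67 and Top2a held one in the 120 bases before the start. A CCAAT box was present in 22 members (81.5%), against 37.4% of all promoters. An E2F word was present in 6 members (22.2%), namely Cdc6, Mcm3, Mcm5, Mcm6, Mcm7 and Cdk1, against 2.26% of all promoters. Of these 6, only Mcm6 held one in the 120 bases before the start. The RefSeq start lay 539 bases from the annotated start of the coding transcript for Mcm7 and 350 bases for Cdc6. Every member with a CHR core also had a CCAAT box, while 6.95% of all promoters held both. The word TATAAA was found in 0 of the 27 windows and in 13.6% of all promoters. A closer background is the 10135 genes of at least 1 CPM with a window, taken 1 per gene like the members. There the CHR core was present in 11.3%, a CCAAT box in 37.6% and both in 4.4%. An E2F word was present in 4.05% of these genes and TATAAA in 7.28%. By role, the CHR core stood in 1 of 6 windows of licensing genes, that of Mcm2, and in 5 of 6 windows of spindle and cytokinesis genes. A match to a word is a description of these letters and not a bound site.

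Cell cycle RNA was low in these kidneys beside most genes of at least 1 CPM. Levels were compared per length, as mean CPM (library-scaled counts, as edgeR reports them) per kilobase of the most abundant coding transcript of each gene. Of the 34 members, 33 lay below 3.98 CPM per kb, the median over the 12555 genes whose most abundant coding transcript reached 1 CPM. The members were not held to that minimum, and 29 of them reached it. By the most abundant transcript of any kind, the members had a median of 0.824 CPM per kb. Genes of at least 0.1 CPM had one of 2.36 and all genes one of 0.395, so the ranking depends on the background. Pcna, the sliding clamp of DNA polymerase that also serves DNA repair, was the exception at 10.8 CPM per kb. Licensing and S phase genes had a median level of 2.1 CPM per kb and genes of G2 and mitosis one of 0.715 CPM per kb. The 6 subunits of the MCM ring, which assemble in equal numbers, ranged 3.33-fold in level, from 1.01 CPM per kb for Mcm5 to 3.37 for Mcm6. The lowest level belonged to Cdc6, the helicase loader, at 0.135 CPM per kb. Mki67, the gene of the proliferation antigen Ki-67, and Top2a, which untangles sister chromatids, stood close together at 0.901 and 0.893 CPM per kb. The neighbours of each gene in this order cannot be separated beyond the spread between mice, because values of single libraries were not analysed here.

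**Figure D1:**
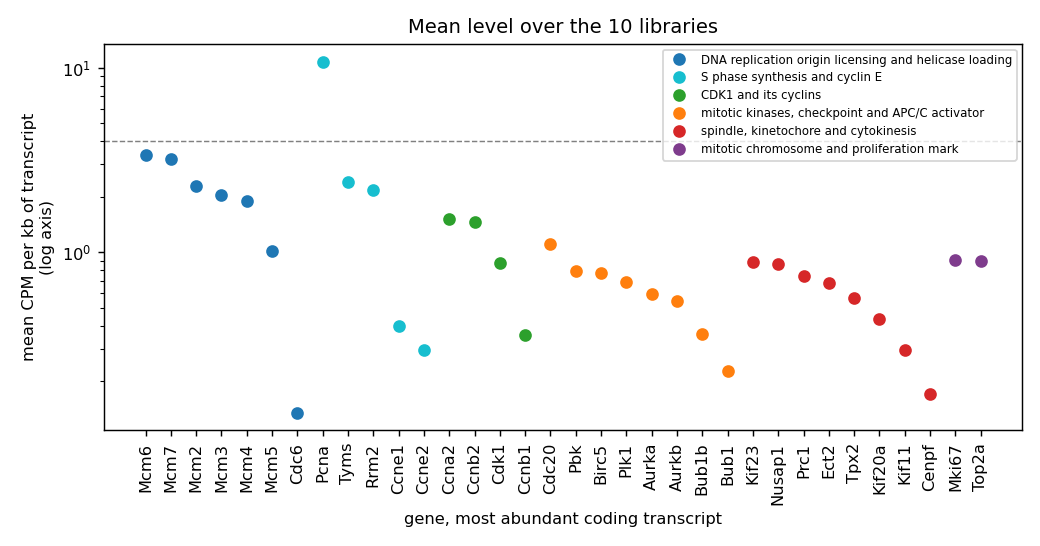
Mean level over the 10 libraries, in CPM per kb of the most abundant coding transcript (log axis), for the 34 genes coloured by role. The dashed line is the median over genes whose coding transcript reached 1 CPM (3.98 CPM per kb), and Pcna at 10.8 is the single gene above it.

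The tissue label was checked against 11 markers of kidney epithelium, all measured, whose median level was 45 CPM per kb of the most abundant transcript, against 0.824 CPM per kb for the 34 cell cycle genes. Of these the smallest p belonged to Nphs1 (0.31) and Atp6v1g3 (0.22), with log2 fold changes in brackets, per the authors' deposited table. Markers of other cells that whole kidney holds were also measured, and no gene of these 6 lists passed the authors' test. The 7 T cell markers summed to 11.8 CPM, had a median of 0.08 on the log2 scale and 5 positive members, and their smallest p belonged to Cd3e (0.54) and Cd3d (0.22), per the authors' deposited table. The 6 markers of B and plasma cells summed to 6.14 CPM with a median of 0.36 and 5 positive, led by Cd79b (0.43) and the joining chain gene Jchain (-0.52), per the authors' deposited table. The 7 macrophage markers summed to 272 CPM with a median of 0.05 and 6 positive, led by Cd68 (0.21) and C1qc (0.17), per the authors' deposited table. The 7 markers of neutrophils and myeloid precursors summed to 5.45 CPM with a median of 0.00, 3 positive and 2 negative, led by S100a9 (-0.52 at 2.84 CPM) and Ltf (0.51 at 0.364 CPM), per the authors' deposited table. Of that list Mpo and Elane, which mark immature myeloid cells, were listed at 0.025 and 0.0206 CPM with a fold change of 0. The 5 erythroid markers summed to 59.8 CPM with a median of 0.33 and 5 positive, led by Klf1 (0.50) and the globin gene Hba-a1 (0.33), per the authors' deposited table. The 6 endothelial markers summed to 91.4 CPM with a median of 0.15 and 6 positive, led by Emcn (0.25) and Ehd3 (0.19), per the authors' deposited table. The erythroid and endothelial lists thus had no negative member, where 71.8% of genes of at least 1 CPM were positive. With the trend on length and mean level described below removed, 3 of 4 erythroid genes of at least 0.1 CPM were positive. All 6 endothelial genes then stayed positive, with a median of 0.10. The part of such cells in the values below was not tested. In whole tissue, fewer cells of a type and less RNA per cell cannot be told apart.

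None of the 34 genes differed between the groups by the authors' likelihood-ratio test in edgeR at an adjusted p under 0.05, and the smallest adjusted p among them was 0.794. Over all genes the same rule called 6 of 27876 (0.0215%). At an unadjusted p under 0.05, 1 member passed, Ect2, which is 2.94% of the members against 5.12% of all genes, so the share is not above the background. The log2 fold changes of the members ran from -0.33 to 0.40, with a median of 0.09 and 20 of 34 positive, while genes of at least 1 CPM had a median of 0.08 and 71.8% positive. The sign is given as deposited, because the header does not say whether vehicle or quinolinic acid is the numerator. Errors are approximate 95% intervals, computed from the fold change and likelihood ratio of the deposited table. The interval of every member lay between -0.99 and 0.92 on the log2 scale, and for 12 members it lay within 1.5-fold. The values for single mice were not analysed here, so whether the groups overlap is not known.

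**Figure D2:**
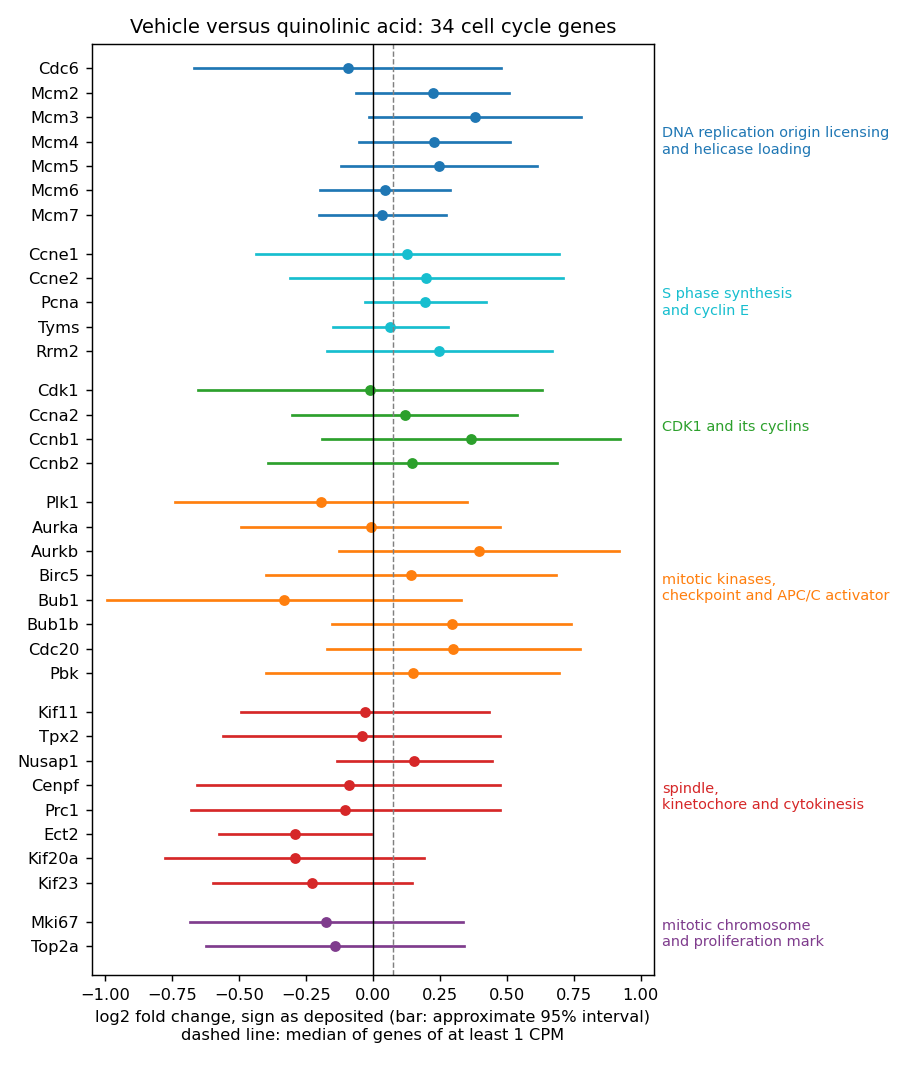
Log2 fold change, vehicle versus quinolinic acid with the sign as deposited (horizontal axis), of the 34 genes grouped by role, with approximate 95% intervals as bars. Every interval except that of Ect2 crosses 0, and the dashed line marks the median of genes of at least 1 CPM (0.08).

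Of the 7 genes of origin licensing, 6 were positive in sign, and the median log2 fold change was 0.22. Mcm3 (chromosome 1, 20802973 to 20820260, mm10) had the largest, 0.38 (95% interval -0.02 to 0.78), at 6.16 CPM (p = 0.0596, adjusted p = 0.794) per the authors' deposited table. Mcm2, Mcm4 and Mcm5 had log2 fold changes of 0.22, 0.23 and 0.25 per the authors' deposited table, at 7.66, 6.82 and 3.42 CPM. These 4 subunits differed by less than the width of any of their intervals. Mcm6 and Mcm7, the most abundant subunits, had smaller values of 0.05 (-0.20 to 0.29) and 0.03 (-0.20 to 0.27) per the authors' deposited table. Cdc6 had a log2 fold change of -0.09 (-0.67 to 0.48) per the authors' deposited table. Its most abundant transcript is annotated for nonsense-mediated decay, and its coding transcript had -0.12.

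The 5 genes of S phase were all positive in sign, and their median log2 fold change was 0.20. Pcna stood at 0.20 (-0.03 to 0.42), at 16.3 CPM, which was the highest mean level of the members before correction for length, with p = 0.0903 per the authors' deposited table. Rrm2, the regulated subunit of ribonucleotide reductase, had one of 0.25 (-0.17 to 0.67) and Tyms, thymidylate synthase, one of 0.06 (-0.15 to 0.28) per the authors' deposited table. The narrow interval of Tyms ends below a 1.5-fold difference on both sides. The cyclin E genes Ccne1 and Ccne2, which partner CDK2 at the start of S phase, had log2 fold changes of 0.13 (-0.44 to 0.69) and 0.20 (-0.31 to 0.71) at 0.799 and 0.881 CPM per the authors' deposited table. Both lie under 1 CPM, and of the Ccne2 transcript 20.3% overlaps exons of Ints8 on the opposite strand.

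Of CDK1 and its cyclins, Cdk1 itself, measured at 3.81 CPM, stood at -0.01 (-0.65 to 0.63) on the log2 scale per the authors' deposited table. Ccna2, cyclin A2, had one of 0.12 (-0.30 to 0.54) and Ccnb2, cyclin B2, one of 0.15 (-0.39 to 0.69) per the authors' deposited table. Ccnb1, cyclin B1 (chromosome 13, 100778650 to 100786570), measured at 0.884 CPM, stood at 0.37 (-0.19 to 0.92; adjusted p = 0.794) per the authors' deposited table. The interval of each of these genes includes 0, and the fold changes of cyclin B1 and its kinase differ by less than the width of either interval. Pseudogenes named after Ccnb1, Ccnb2, Pcna and Tyms are annotated. Of these 5 pseudogenes, Pcna-ps2 was measured at 0.0738 and Ccnb2-ps at 0.0976 CPM, and the others were not analysed here. Sharing of reads with such copies was not tested. Of the Ccna2 transcript 17.2% overlaps Exosc9 on the opposite strand.

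The 8 genes of mitotic kinases, the spindle checkpoint and the anaphase-promoting complex went both ways, 5 positive and 3 negative. The extreme members of the whole set were found here. Aurkb, the catalytic subunit of the chromosomal passenger complex (chromosome 11, 69045652 to 69051664) and measured at 1.06 CPM, showed a log2 fold change of 0.40 (-0.13 to 0.92; adjusted p = 0.794) per the authors' deposited table. Birc5, which encodes survivin of the same complex, had one of 0.14 (-0.40 to 0.69) per the authors' deposited table. Bub1, a checkpoint kinase at the kinetochore (chromosome 2, 127801122 to 127831865), had the most negative value, -0.33 (-0.99 to 0.33) at 0.772 CPM (adjusted p = 0.825) per the authors' deposited table. Its relative Bub1b, which encodes the checkpoint protein BubR1, had 0.29 (-0.15 to 0.74) per the authors' deposited table. The intervals of Bub1 and Bub1b overlap, and the opposite signs were not tested against each other. Cdc20, the mitotic activator of the anaphase-promoting complex, had 0.30 (-0.17 to 0.77), and Pbk, a mitotic kinase, 0.15 (-0.40 to 0.70) per the authors' deposited table. The kinases Plk1, of centrosome maturation and mitotic entry, and Aurka, of the spindle poles, had -0.19 (-0.74 to 0.35) and -0.01 (-0.49 to 0.48) per the authors' deposited table.

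Genes of the spindle and of cytokinesis leaned to the negative side. Of 8 members 7 were negative in sign, the median log2 fold change was -0.10, and 1 had an unadjusted p under 0.05. That was Ect2, the exchange factor that activates RhoA for the contractile ring (chromosome 3, 27097222 to 27153861), measured at 2.79 CPM with a log2 fold change of -0.29 (-0.58 to -0.01; p = 0.0444, adjusted p = 0.794) per the authors' deposited table. Kif23, a kinesin of the centralspindlin complex that recruits ECT2, had -0.23 (-0.60 to 0.14) per the authors' deposited table. Kif20a, a kinesin of the central spindle, had -0.29 (-0.78 to 0.19) and Prc1, which bundles its microtubules, -0.10 (-0.68 to 0.47) per the authors' deposited table. Of the Kif20a transcript 26.4% overlaps Cdc23 and of the Prc1 transcript 25.1% overlaps Rccd1, both on the opposite strand, and whether reads were counted by strand is not known here. The spindle motor Kif11 had -0.03 (-0.49 to 0.44), the spindle assembly factor Tpx2 -0.04 (-0.56 to 0.48) and the kinetochore gene Cenpf -0.09 (-0.66 to 0.47) per the authors' deposited table. Nusap1, which binds spindle microtubules, was the positive member at 0.15 (-0.14 to 0.45) per the authors' deposited table. Mki67 and Top2a had log2 fold changes of -0.17 (-0.68 to 0.34) and -0.14 (-0.62 to 0.34) per the authors' deposited table, both with intervals across 0.

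By phase, 11 of the 12 licensing and S phase genes were positive in sign and their median was 0.20, while 9 of the 22 genes of G2 and mitosis were positive and their median was -0.02. This difference between phases is a count over genes that share libraries and was not tested. By promoter word, the median log2 fold change was -0.06 in the 14 members with a CHR core and 0.14 in the 13 others with a window. It was 0.04 in the 6 members with an E2F word and 0.06 in the rest. Function and promoter word overlap in these genes, so the medians describe the same genes sorted in different ways.

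Transcript length moved with these values. Across the 34 members the rank correlation (Spearman's rho) of length with log2 fold change was -0.42, and across the 13115 genes of at least 1 CPM it was -0.51, over points that share all libraries. The 9 members of 4000 nt or more had 8 negative signs and a median of -0.09, and the 4345 genes of at least 1 CPM and that length had a median of -0.01 with 46.8% positive. The 6 members under 2000 nt had 5 positive signs and a median of 0.17, and the 3480 such genes of at least 1 CPM had one of 0.16 with 90.3% positive. With the trend on length and mean level removed by loess, the median of the members was 0.01, against 0.00 for genes of at least 1 CPM, and 19 of 34 had a positive sign. The spindle and cytokinesis genes then had a median of -0.13 with 7 of 8 negative, while the 59 other genes of mitosis described below had a median of 0.01 with 31 positive and 28 negative. The median of the licensing genes was then 0.16, with 5 of 7 positive, and Mcm7 went from 0.03 to -0.05. All 5 S phase genes were still positive, with a median of 0.05. No member passed at an adjusted p under 0.05 with the trend removed.

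**Figure D3:**
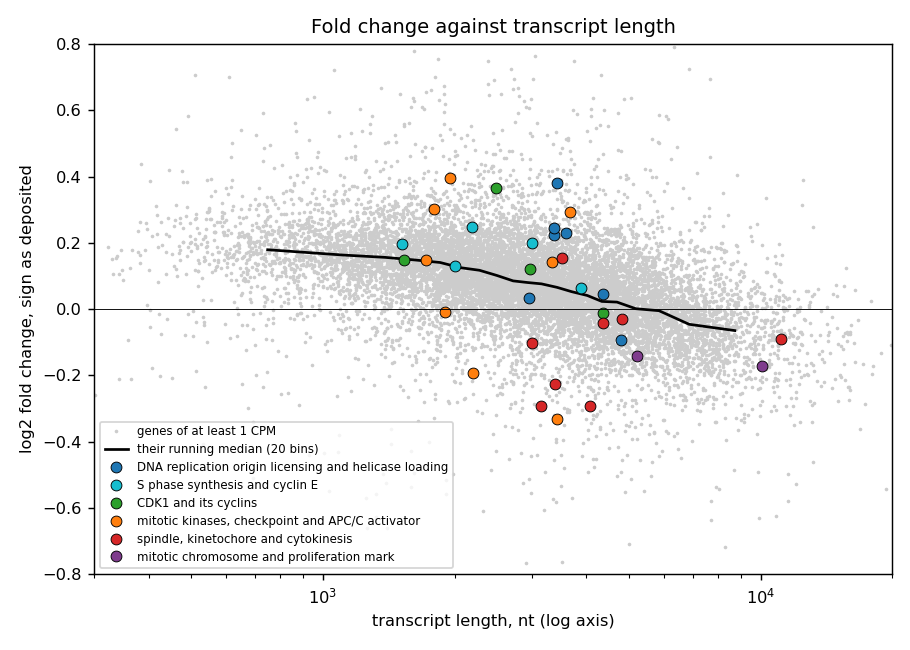
Log2 fold change with the sign as deposited (vertical axis) against transcript length in nt (log axis) for the 34 genes, coloured by role, over genes of at least 1 CPM in grey. The black line is the running median of the grey genes, which passes from positive to negative with length, and some grey genes lie beyond the plotted range.

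Further transcripts of the members bear on several genes, and those of Ect2 and Mcm3, which agree in sign, are described most fully. Transcripts of Mcm7 ran from -0.32 to 0.31 with a mean of -0.15. Those of Bub1 ran from -0.33 to 0.90, the latter at 0.0357 CPM, with a mean of 0.11. The sign of Mcm7 and of Bub1 thus depended on the transcript taken. Transcripts of both signs were also listed for Mcm6, Ccne1, Tyms, Cdk1, Ccna2, Ccnb1, Aurka, Aurkb, Tpx2, Nusap1, Cenpf, Prc1 and Top2a. The table held 156 transcripts of the 34 genes, and 14 of them (8.97%), from 4 genes, had an unadjusted p under 0.05, against 6.08% of all transcripts. Transcripts of a gene share reads, as the 3 coding Aurka transcripts with the same rounded log2 fold change show, so these are not independent measurements. None of the 156 had an adjusted p under 0.05, where the rule called 0.0141% of all transcripts. All 12 Ect2 transcripts had a negative sign, and 9 of them an unadjusted p under 0.05. The 3 Ect2 transcripts annotated with a retained intron had log2 fold changes of -0.72 (-1.13 to -0.31), -0.95 (-1.44 to -0.46) and -0.95 (-1.63 to -0.28) at 0.612, 0.168 and 0.123 CPM per the authors' deposited table. The one at 0.168 CPM had the smallest adjusted p of any member transcript, 0.237. The full-length coding Ect2 transcript, at 2.79 CPM, had -0.29. All 5 Mcm3 transcripts had a positive sign, and 3 short ones with a retained intron had 0.57 (0.11 to 1.02), 0.55 (0.10 to 1.00) and 0.53 (0.02 to 1.03), against 0.38 (-0.01 to 0.78) for the coding one per the authors' deposited table. In Ect2 4 short coding transcripts also lay farther from 0 than the full-length one, from -0.58 to -0.65 at 0.11 to 0.136 CPM. In Mcm3 the long transcript with a retained intron had 0.38, like the coding one. Greater distance from 0 was therefore seen in several transcripts shorter than the full-length coding one, of both kinds of annotation. Their intervals overlap that of the full-length coding transcript. A short Ect2 transcript of 687 nt annotated for nonsense-mediated decay lay nearer to 0 than the full-length one. It had -0.12 (-0.58 to 0.34) at 0.5 CPM per the authors' deposited table. The other 2 of the 14 were a Tpx2 transcript with a retained intron, at -1.56 and 0.135 CPM, and a noncoding Top2a transcript, at -1.09 and 0.0446 CPM per the authors' deposited table.

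**Figure D4:**
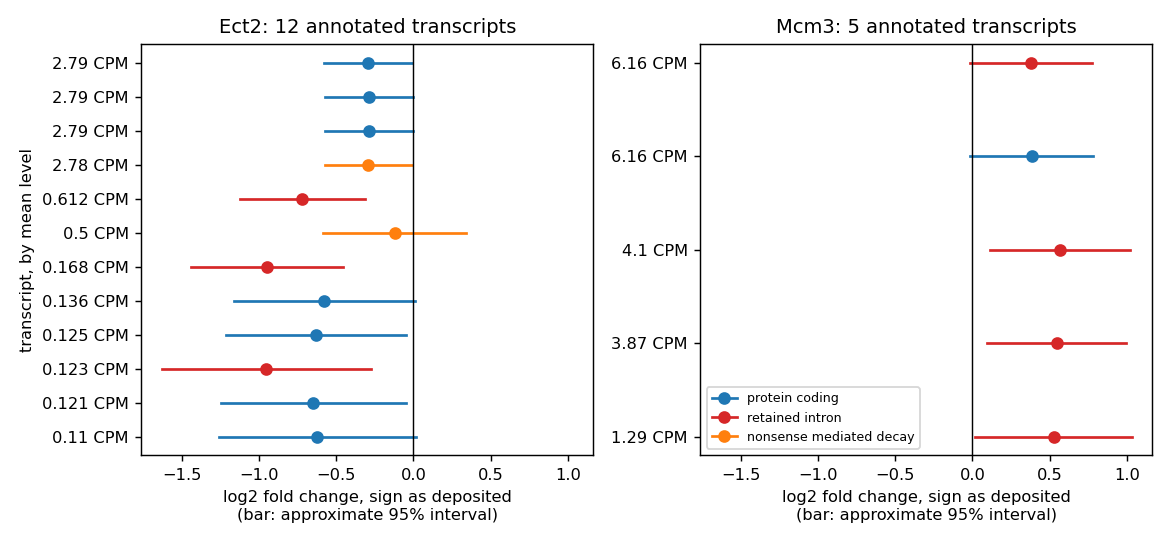
Log2 fold change with the sign as deposited (horizontal axis) and approximate 95% interval of each annotated transcript of Ect2 and Mcm3, ordered by mean level and coloured by annotation. The 12 Ect2 transcripts are all negative and the 5 Mcm3 transcripts all positive.

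Other genes of the cell cycle were read from lists of 121 genes in 4 roles, and none passed at an adjusted p under 0.05. At an unadjusted p under 0.05 there were 6 (4.96%), all positive, against 5.12% of all genes. Over all genes, 998 of the 1426 with such a p were positive. Of these 121 genes 93 (76.9%) were positive in sign, against 71.8% of genes of at least 1 CPM, and their median log2 fold change was 0.13. With the length and level trend removed 76 were positive and the median was 0.04. The 37 other genes of DNA replication had a median of 0.15 with 33 positive, and the 59 other genes of mitosis one of 0.08 with 39 positive.

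The 14 genes of G1 and S control held the smallest p of these lists. Cdkn1c, which encodes the CDK inhibitor p57, stood at 0.56 (0.22 to 0.89), at 9.88 CPM (p = 0.00108, adjusted p = 0.431) per the authors' deposited table. Cdkn1c is also expressed by podocytes, and the podocyte gene Nphs1 had a log2 fold change of 0.31 (-0.01 to 0.63) per the authors' deposited table. The part of podocytes in the Cdkn1c value was not tested. Cdkn2c, the INK4 inhibitor p18, had 0.34 (0.09 to 0.60), p = 0.00825 and an adjusted p of 0.692 per the authors' deposited table. Cdkn1a, the p53-responsive inhibitor p21, had 0.01 (-0.48 to 0.50) at 10.7 CPM per the authors' deposited table. Both inhibitors with a small p therefore missed the threshold over all transcripts, and p21 lay near 0.

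The 11 genes of the DREAM and MuvB complexes, which set the timing of these promoters, had a median of 0.11 with 10 positive, and 7 positive with the trend removed. Their smallest p belonged to the MuvB subunits Lin37 (0.23) and Lin52 (0.17), with an adjusted p of 0.794 for both per the authors' deposited table. Foxm1, the activator of G2 and mitosis genes, had 0.24 (-0.29 to 0.78) at 1.64 CPM per the authors' deposited table. Among replication genes the smallest p belonged to Cdc45, a helicase cofactor, and to Pole, the leading-strand polymerase. Cdc45 had 0.36 (0.02 to 0.70) and Pole 0.41 (-0.0043 to 0.83), with an adjusted p of 0.794 for both per the authors' deposited table. The interval of Pole includes 0. Among mitosis genes the smallest p belonged to the condensin subunit Ncaph, at 0.72 (0.26 to 1.19), 1.41 CPM and an adjusted p of 0.537, and to Pimreg, at 1.11 (0.29 to 1.93), 0.796 CPM and an adjusted p of 0.685 per the authors' deposited table. Ncaph and Pimreg lie on the opposite side of 0 from Ect2.

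**Figure D5:**
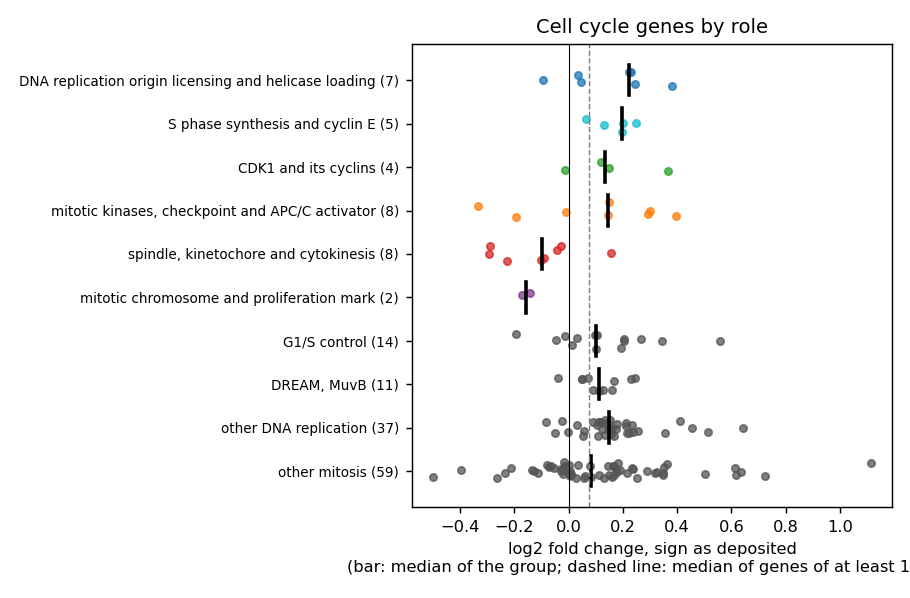
Log2 fold change with the sign as deposited (horizontal axis) of the 34 genes by role, in colour, and of 121 other cell cycle genes in 4 lists, in grey, with the number of genes in brackets. Black bars are group medians and the dashed line is the median of genes of at least 1 CPM. Spindle and cytokinesis genes and the pair Mki67 and Top2a are the groups with a negative median.

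Markers of tubular injury and repair, the setting in which tubular cells divide, did not pass as single genes. Sox9, a transcription factor of repairing tubules, measured at 7.89 CPM, stood at 0.64 (-0.01 to 1.28) per the authors' deposited table. Havcr1 and Lcn2, tubular injury markers, were measured at 88.1 and 69.5 CPM, and what these levels mean for injury was not tested. Both genes had -0.50, with intervals of -1.12 to 0.12 and -1.10 to 0.11 per the authors' deposited table. Their intervals are wider than those of most cell cycle genes, and the 9 markers of the list had a median of 0.18 with 6 positive.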

How the data were processed

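Whole-kidney RNA of 5 vehicle and 5 quinolinic acid mice was grouped by the treatment in the labels. Per the submitters' processing notes, the authors worked on mm10 with STAR 2.5.3a, FastQC 0.11.2, edgeR, and featureCounts (Subread 1.4.6). Not given in the sources used here are the annotation release, filters, strand setting and depth per library. For each of 85107 transcripts the authors deposited, per the file headers, the log2 fold change, the average log2 CPM, a likelihood-ratio score, a p-value and an adjusted p-value. Recomputing the p-value as the chi-square tail (1 degree of freedom) gave the deposited one, and the adjusted p matched its Benjamini-Hochberg value, to within rounding. No values per library were used, so the authors' test stands in for a count test.

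Transcripts were joined to GENCODE vM21 by identifier without version (83446 matched, 98%), and each gene took its transcript with the highest mean CPM. The approximate standard error is the size of the log2 fold change over the root of the likelihood ratio; fold changes of low genes are moderated in the authors' edgeR fit, so their errors are understated. Lengths are summed vM21 exons. Levels depend on how reads shared by transcripts were counted, which is not stated in the sources used here. The trend was removed by loess (span 0.5, genes of at least 0.1 CPM, R 4.3.3) and tested on simulated data. Python 3.11.15, numpy 2.4.6, pandas 2.3.3, scipy 1.17.1 and matplotlib 3.10.9 were used. Members and lists were chosen with earlier results of these data known. Named were all members, and of each other list described the 2 genes with the smallest p, with Cdkn1a, Foxm1, Havcr1 and Lcn2 in any case. Genes and transcripts named beyond this (Elane, Mpo, 2 pseudogenes, and single transcripts of Ect2, Mcm3, Mcm7, Bub1, Tpx2, Top2a and Aurka) were chosen after their values were seen. Alternatives were other thresholds and adjustments, the coding transcript, the mean over transcripts, CPM minimums, centring and the trend removal.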

Additional observations from a re-analysis of the deposited data

How the results depend on the processing

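No member was called under 4 of the 5 other rules run: an unadjusted p under 0.01, adjustment over 1 transcript per gene, adjustment over genes of at least 1 CPM, and, chosen after seeing the data, the length and level trend removed. At an unadjusted p under 0.05 the count was 1. The median log2 fold change of the members was 0.09 as reported, 0.09 with the coding transcript or the mean over transcripts, 0.06 in the 29 members of at least 1 CPM, 0.01 with the trend removed and 0.02 when centred on genes of at least 1 CPM. The percent with a positive sign was 58.8 as reported and 50 when centred. For 31 of the 34 members the most abundant transcript was already a coding one, so the coding setting could change only 3 members. With the coding transcript 34 of 34 members had the same sign as reported, which says little for that reason. With the trend removed 33 did, Mcm7 turning from 0.03 to -0.0471. Signs were less stable with the mean over transcripts, although the percent positive stayed at 58.8. There Mcm7, Ccne1, Ccna2 and Nusap1 turned negative, and Cdk1, Aurka, Bub1 and Cenpf turned positive. No paired analysis was possible because the values used are a finished comparison without values per library; for the same reason leaving out single libraries and other count models were not run. Without depth per library, precision is known from the deposited statistics alone.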
